A study of Mus musculus with 8 samples.

Results

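Chemokines and their receptors were followed in the kidneys of NEKO mice, in which the transcription factor Nrf2 is hyperactive. The genes were taken by symbol alone: every gene of the array whose RefSeq symbol begins with Ccl, Cxcl, Ccr or Cxcr followed by a number. This gave 49 genes, 32 ligands and 17 receptors, of the 18217 genes named on the array. For 27 of them (21 ligands and 6 receptors), 4 or more of the 8 arrays gave a signal well above background, and these 27 were tested. Passing this filter depends on the level in the kidney, so the 27 are not all members of the family.

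Kidney RNA of 8 mice was hybridised to 1-colour (Cy3) Agilent mouse oligonucleotide arrays, 1 mouse per array. All mice were 8 weeks old, on a mixed 129Sv/J and C57BL/6J background, and homozygous for the floxed Nrf2 allele (Nrf2Flox/Flox). The 4 NEKO mice, 2 females and 2 males, carried Keap1-/- and K5-Cre. Keap1 is the adaptor that targets Nrf2 for degradation, and K5-Cre removes Nrf2 in squamous epithelium, so that Nrf2 is active in the kidney but not in the oesophagus. The 4 controls, again 2 females and 2 males, were all Keap1+/-, and were either K1 (no Cre, 1 female) or K1Cre (with K5-Cre, 1 female and 2 males). The Keap1 loss was present in every cell from conception, so the kidney had no tissue-restricted deletion, and no wild-type mouse was included. Each slide held 2 NEKO and 2 control mice, but the females shared one slide and the males another, so that sex and slide cannot be told apart. Values are log2 signals less the 75th percentile of the array; 1 unit is a doubling, and a level is not comparable between genes, because probes differ in brightness.

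Chemokines are small secreted proteins that guide leukocytes along gradients. CC ligands such as Ccl2 draw monocytes and T cells, CXC ligands such as Cxcl1 draw neutrophils, and Cxcl9 and Cxcl10 are induced by interferon-gamma and draw activated T cells through Cxcr3. Their receptors are G protein-coupled and lie mostly on leukocytes, while in the kidney tubular, stromal and endothelial cells can all secrete ligands.

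The deleted gene was read in every mouse first, and it went with the labels. Keap1 was 0.20 ± 0.17 (SD, n = 4) in NEKO kidneys and 1.84 ± 0.07 (SD, n = 4) in controls, and the Nrf2 target Nqo1 was 4.75 ± 0.73 (SD, n = 4) and 2.13 ± 0.60 (SD, n = 4). Keap1 differed by -1.63 on the log2 scale (adjusted p = 0.0046 from limma) and Nqo1 by 2.62 (adjusted p = 0.065 from limma). Nqo1 thus did not pass the adjusted threshold used below for the members. Failing that threshold therefore does not show that a gene was unchanged. The share of probes well above background ran from 61.8% to 65.7% over the arrays, and none was saturated. All 8 tubule and podocyte markers, among them Slc34a1, Lrp2, Slc12a1, Umod, Slc12a3 and Aqp2, were detected, and their summed level lay between 9.03 and 9.29 in every mouse. That sum is carried by Umod, Lrp2 and Slc34a1. Of the 8, only Slc12a3 passed an unadjusted p under 0.05, as lower in NEKO kidneys (-0.57, adjusted p = 0.20 from limma).

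No chemokine or receptor was called in NEKO against control kidneys. In whole kidney RNA, as here, fewer cells of a type and less RNA per cell cannot be told apart. With limma and adjustment over all 19593 genes and transcripts tested, 0 of 27 were higher and 0 lower at an adjusted p under 0.05, where 0.097% of all tested features were higher and 0.128% lower. At an unadjusted p under 0.05, 2 members were higher, Cxcl12 and Cxcl1 (7.41% of the 27, against 7.37% of everything tested), and 1 was lower, Ccl4 (3.7%, against 10.6%). In Cxcl12 and Cxcl1, and in no other member, all 4 NEKO mice exceeded all 4 controls, which held for 3.88% of all tested features. In none were all 4 NEKO mice below all 4 controls, against 5.33%. By these counts of 2 or fewer, the members were near or below the background, except that separation upwards was found in 7.41% of them. Of the 2 separated members, Cxcl1 entered the test through the NEKO kidneys, in which it was high. The median log2 difference was 0.13 over the 27 members and -0.03 over all features tested.

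**Figure D1:**
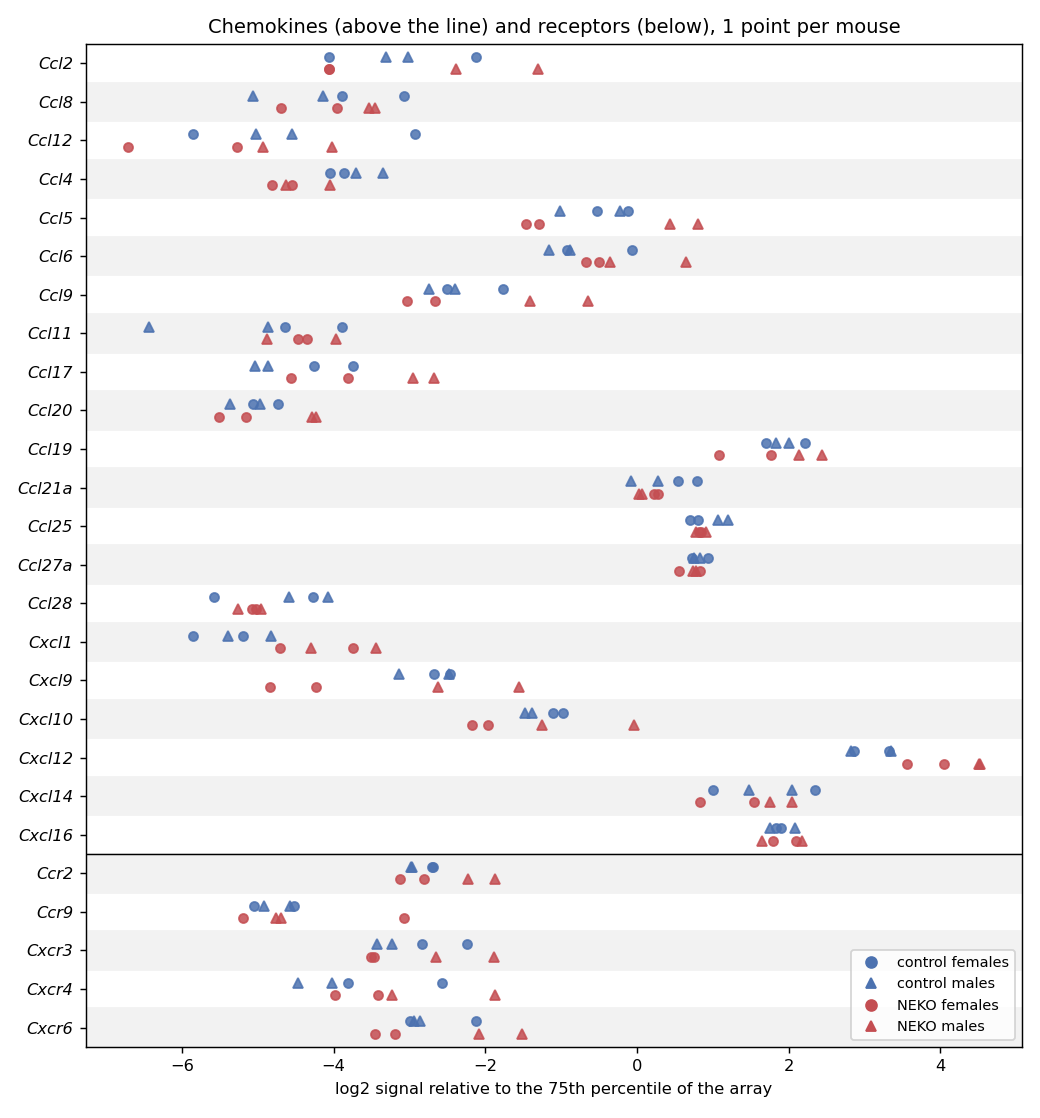
Level of 26 of the 27 tested members in each mouse (x axis, log2 signal less the array's 75th percentile), with ligands above the horizontal line and receptors below, control mice in blue, NEKO mice in red, circles for females and triangles for males. In Cxcl12 and Cxcl1 the 4 red points lie to the right of all blue ones, whereas in genes such as Ccl5 and Cxcr6 the red circles and red triangles lie on opposite sides.

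Cxcl12, the ligand of Cxcr4 and Ackr3 and a product of stromal and tubular cells, separated by genotype. Cxcl12 measured 2.87 and 3.32 in the control females, 2.82 and 3.34 in the control males, 4.05 and 3.55 in the NEKO females, and 4.51 and 4.52 in the NEKO males. Every NEKO mouse was above every control mouse, and the NEKO males were the highest. The means were 4.16 ± 0.46 (SD, n = 4) with NEKO and 3.09 ± 0.28 (SD, n = 4) with control genotype, a difference of 1.07 on the log2 scale (standard error 0.22, unadjusted p = 0.0017, adjusted p = 0.098 from limma), or 2.1-fold (95% interval 1.47 to 3.01). In an exact two-sided permutation test over all 8 mice, without regard to sex, the p was 0.0286, the smallest that 4 mice against 4 allow. Groups that do not overlap always give this value, so it adds nothing to the separation. Both sexes lay on the same side, at 0.71 in females and 1.44 in males, and a second, dimmer probe of the gene gave 0.82 over both sexes. With a sex-by-genotype term and the mean of both sexes' effects, Cxcl12 passed the threshold (adjusted p = 0.043 from limma). That setting called 245 of all features higher and 268 lower, against 19 and 25 in the main model. Over the other adjusted settings the adjusted p of Cxcl12 reached 0.36.

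Cxcl1, a neutrophil attractant that acts through Cxcr2, was near the detection limit. Cxcl1 measured -5.86 and -5.20 in the control females, -4.83 and -5.40 in the control males, -3.74 and -4.71 in the NEKO females, and -3.45 and -4.30 in the NEKO males. All NEKO values exceeded all control values, although NEKO female 3 at -4.71 and control male 4 at -4.83 were close. The probe was well above background in 2 of 4 control kidneys and in all 4 NEKO kidneys. The means were -4.05 ± 0.57 (SD, n = 4) with NEKO and -5.32 ± 0.43 (SD, n = 4) with control genotype, a difference of 1.27 on the log2 scale (standard error 0.30, unadjusted p = 0.0038, adjusted p = 0.12 from limma). This difference is 2.42-fold on the processed signal and was almost equal in the sexes (1.30 in females, 1.24 in males). The exact two-sided permutation p was again 0.0286. Cxcl1 met the filter of 4 arrays through the NEKO kidneys, in which it was high. Neither its limma nor its permutation p is therefore read as support for a difference. With only probes detected on all 8 arrays, Cxcl1 was not tested, and over the remaining settings its difference ranged from 0.56, with normexp background correction, to 1.46. The other ligands of Cxcr2 on the array, Cxcl2, Cxcl3, Cxcl5 and Cxcl15, and Cxcr2 itself were not tested.

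Ccl4, a CC ligand made by activated macrophages and lymphocytes, was the member lower at the unadjusted threshold. Ccl4 measured -4.05 and -3.86 in the control females, -3.35 and -3.71 in the control males, -4.55 and -4.82 in the NEKO females, and -4.05 and -4.62 in the NEKO males. The groups nearly separated, and the only crossing was between NEKO male 5 and control female 1, at -4.05 each. The means were -4.51 ± 0.33 (SD, n = 4) with NEKO and -3.74 ± 0.30 (SD, n = 4) with control genotype, a difference of -0.77 on the log2 scale (standard error 0.15, unadjusted p = 0.0016, adjusted p = 0.094 from limma), or 0.588-fold. Females (-0.73) and males (-0.81) gave like values. The exact two-sided permutation p was 0.0571. With normexp background correction the difference was -0.23 (adjusted p = 0.16 from limma). Ccl3, the close paralog next to Ccl4, reached no signal well above background in any mouse, and whether the Ccl4 probe reads both was not tested.

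**Figure D2:**
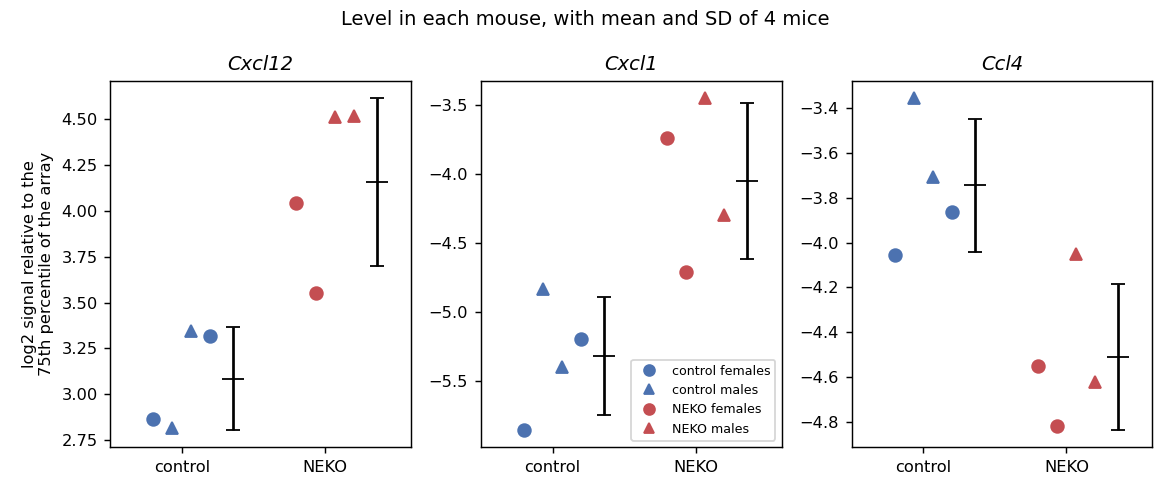
Level of Cxcl12, Cxcl1 and Ccl4 in each mouse (y axis, log2 signal less the array's 75th percentile, a separate scale in each panel), with the mean and SD of 4 mice to the right of each group. Every NEKO point lies above every control point for Cxcl12 and Cxcl1, and for Ccl4 the groups cross at -4.05.

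The sequences upstream of Cxcl12 and Cxcl1 are shown because these are the members whose groups did not overlap. They run from 250 bases before to 50 bases after the start of the gene in the RefSeq table of GRCm38.p6. Cxcl12 is at chr6:117168285-117168584 (plus strand) and Cxcl1 at chr5:90890995-90891294 (plus strand). Capitals mark matches, on either strand, to the antioxidant response element core TGACNNNGC (the site type bound by Nrf2), to an NF-kB core GGNNTTTCC, or to an interferon-stimulated response element core GAAANNGAA. None of the matches printed here overlaps another.
Cxcl12: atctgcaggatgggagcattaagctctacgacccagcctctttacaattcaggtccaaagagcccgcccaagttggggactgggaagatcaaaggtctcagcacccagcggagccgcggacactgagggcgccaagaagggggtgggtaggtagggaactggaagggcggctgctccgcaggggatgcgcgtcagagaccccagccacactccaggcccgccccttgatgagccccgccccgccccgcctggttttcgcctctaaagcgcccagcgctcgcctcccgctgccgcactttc
Cxcl1: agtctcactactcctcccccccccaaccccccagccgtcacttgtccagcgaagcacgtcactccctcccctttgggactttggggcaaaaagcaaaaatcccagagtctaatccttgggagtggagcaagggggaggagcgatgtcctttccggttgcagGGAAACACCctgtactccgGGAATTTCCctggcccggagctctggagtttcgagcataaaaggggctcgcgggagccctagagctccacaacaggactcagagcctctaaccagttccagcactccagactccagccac
The Cxcl12 stretch held none of the 3 motifs, and the Cxcl1 stretch held the NF-kB core at 2 places. Over all 32851 promoters of the table, 12.4% held the antioxidant core, 5.82% the NF-kB core and 8.56% the interferon-stimulated core. A match is a run of letters and shows no binding. Of the 21 tested members with a promoter in the table, 1 held the antioxidant core (Cxcl10), 5 the NF-kB core (Ccl9, Ccl20, Cxcl1, Cxcl9 and Cxcl10) and 5 the interferon-stimulated core (Ccl19, Ccr2, Cxcl9, Cxcl10 and Cxcl14).

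The larger pattern was a contrast between the sexes. Of the 27 members, 22 were lower in NEKO females than in control females (81.5%, against 56.2% of all features) and 21 were higher in NEKO males than in control males (77.8%, against 45.8%). The median log2 difference of the members was -0.43 in females and 0.91 in males, where all tested features had -0.03 in each sex. The effect in males minus the effect in females was above 0 in 21 of 27 members (77.8%, against 50.3%), with a median of 1.26 (against 0.00). By the interaction test in limma, 0 members passed an adjusted p under 0.05, as did 0.0153% of everything tested. At an unadjusted p under 0.05, the effect was larger in males in 12 of 27 members (44.4%, against 6.87%) and larger in females in 0 (against 3.65%). Over the alternatives run, from 9 members (of 20 detected on all arrays) to 15 (of 49 with no filter) passed this unadjusted threshold as larger in males.

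The separation of single mice followed the same lines. In 9 members (33.3%, against 3.56% of all features) both NEKO females lay below both control females and both NEKO males above both control males: Ccl2, Ccl5, Ccl8, Ccl9, Ccl20, Cxcl10, Ccr2, Cxcr3 and Cxcr6. The opposite arrangement was found in 1 member, Ccl25 (3.7%, against 2.4%). In 7 members (25.9%, against 9.19%) both NEKO males were above all 6 other mice: Ccl5, Ccl9, Ccl17, Ccl20, Ccr2, Cxcl12 and Cxcr6. In both sexes Ccl20 was measured above background in 1 genotype alone, and without it the counts of 12, 9 and 7 became 11, 8 and 6 of 26. These members were read in the same 8 mice, so they are not independent of each other. Summed levels of T and NK cell, neutrophil and stromal markers also differed among the sex and genotype classes, as given further on, and their part in these values was not tested. Each sex and genotype held 2 mice, which limits the precision of every value below.

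**Figure D3:**
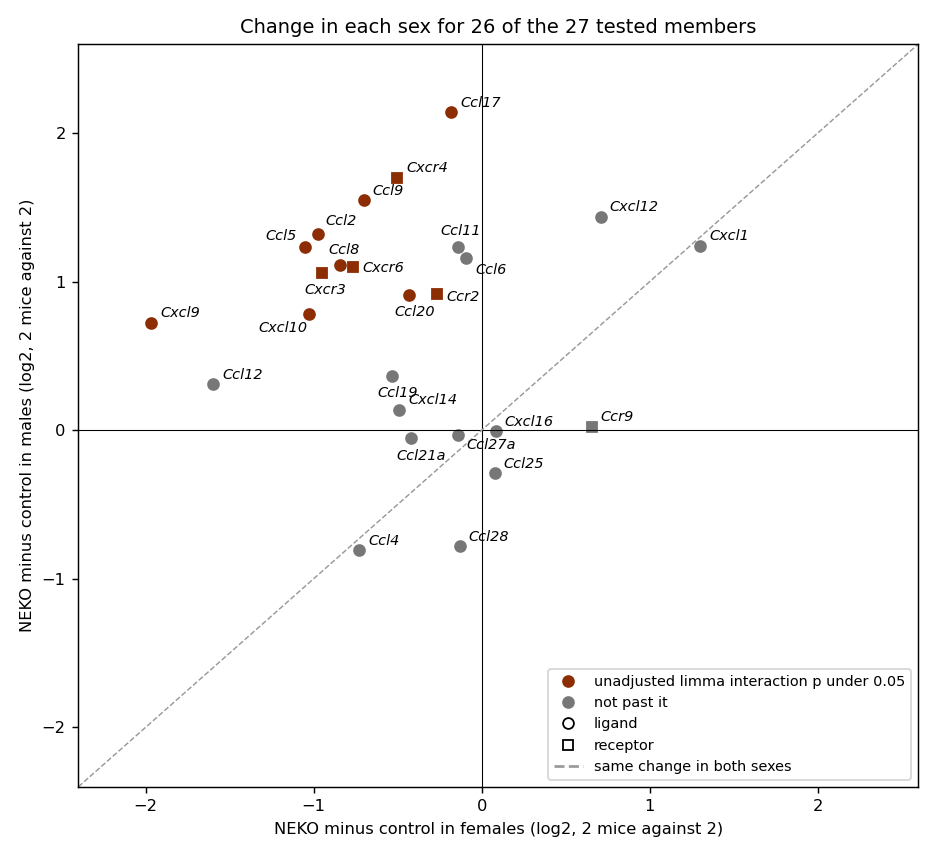
NEKO minus control in females (x axis, log2) and in males (y axis, log2) for 26 of the 27 tested members, circles for ligands and squares for receptors, brown where the unadjusted interaction p was under 0.05, with a dashed line where both sexes would change alike. The 12 brown points lie in the upper left, lower in NEKO females and higher in NEKO males, whereas Cxcl12 and Cxcl1 lie in the upper right and Ccl4 in the lower left.

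Among the CC ligands that attract monocytes through Ccr2, the interaction of Ccl2 and Ccl8 passed the unadjusted threshold. Ccl2 measured -4.06 and -2.12 in the control females, -3.31 and -3.02 in the control males, -4.06 and -4.06 in the NEKO females, and -2.39 and -1.30 in the NEKO males. Both NEKO males were above both control males, and both NEKO females were below both control females, but below control female 1 only by a margin lost in rounding. The genotype difference of Ccl2 was -0.97 in females and 1.32 in males, and these differed by 2.29 (95% interval 0.09 to 4.50, unadjusted p = 0.044, adjusted p = 0.45 from limma). Ccl8 measured -3.89 and -3.07 in the control females, -5.07 and -4.14 in the control males, -4.70 and -3.96 in the NEKO females, and -3.53 and -3.46 in the NEKO males. Here the control males were lower than the control females, and the NEKO males reached the range of the control females. Ccl8 was well above background in only 1 of 2 control males. Its NEKO minus control differences were -0.85 in females and 1.11 in males, and these differed by 1.96 (95% interval 0.52 to 3.40, unadjusted p = 0.016, adjusted p = 0.3 from limma). Ccl12 measured -5.86 and -2.93 in the control females and -6.71 and -5.27 in the NEKO females, which overlapped. It was well above background in neither NEKO female and in 1 of 2 control females. Its lower mean in NEKO females thus rests on 1 control mouse, and no fold is given. In males Ccl12 differed by 0.31. Ccl7 was not tested.

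The inflammatory CC ligands Ccl5, Ccl9, Ccl6 and Ccl4 split. Ccl5, which draws T cells and is made by T and NK cells, measured -0.53 and -0.13 in the control females, -1.02 and -0.22 in the control males, -1.46 and -1.29 in the NEKO females, and 0.43 and 0.80 in the NEKO males. The NEKO males were the highest of the 8 mice and the NEKO females the lowest, with all controls between them. NEKO minus control was, for Ccl5, -1.05 in females and 1.24 in males, and these differed by 2.28 (95% interval 1.28 to 3.29, unadjusted p = 0.0014, adjusted p = 0.13 from limma). Ccl9, a myeloid chemokine acting on Ccr1, behaved alike. Ccl9 measured -2.51 and -1.77 in the control females, -2.41 and -2.74 in the control males, -3.03 and -2.66 in the NEKO females, and -1.41 and -0.64 in the NEKO males. Both NEKO males again exceeded all other mice. For Ccl9 the genotype difference was -0.70 in females and 1.55 in males, and these differed by 2.25 (95% interval 1.07 to 3.44, unadjusted p = 0.0034, adjusted p = 0.16 from limma). Ccl6 was -0.09 in females and 1.16 in males, and its interaction did not pass the unadjusted threshold. Ccl4, described above, did not show this, with a difference between the sexes of -0.08 (95% interval -0.87 to 0.72).

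Ccl17 and Ccl20 attract Ccr4-bearing and Ccr6-bearing T cells respectively. Ccl17 measured -4.26 and -3.74 in the control females, -5.04 and -4.87 in the control males, -4.56 and -3.82 in the NEKO females, and -2.67 and -2.96 in the NEKO males. The females overlapped, and the NEKO males stood above every other mouse. Differences of Ccl17 between genotypes were -0.18 in females and 2.14 in males, and these differed by 2.32 (95% interval 1.34 to 3.31, unadjusted p = 0.0011, adjusted p = 0.13 from limma). This was the lowest unadjusted interaction p among the 27, but Ccl17 was well above background in only 1 of 2 control males. With normexp background correction these differed by 1.13. Ccl20 measured -4.73 and -5.06 in the control females, -5.36 and -4.97 in the control males, -5.51 and -5.15 in the NEKO females, and -4.23 and -4.28 in the NEKO males. The NEKO males were the highest, but a signal of Ccl20 well above background was limited to control females and NEKO males. Its levels in the other classes are bounds, so that control females were at least 1.25-fold above NEKO females and NEKO males at least 1.77-fold above control males, on the processed signal. Ccl20 entered the test through the classes in which it was high, so its interaction is not given as a test. Ccl22, the other ligand of Ccr4, and the receptors Ccr4 and Ccr6 were not tested. Ccl11, an eosinophil attractant, was -0.14 in females and 1.23 in males, and its interaction did not pass the unadjusted threshold. It too was well above background in 1 of 2 control males.

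Cxcl9 and Cxcl10, the interferon-induced ligands of Cxcr3, had their lowest values in NEKO females. Cxcl9 measured -2.46 and -2.68 in the control females, -2.48 and -3.14 in the control males, -4.23 and -4.84 in the NEKO females, and -2.63 and -1.55 in the NEKO males. The NEKO females were the lowest of all mice, 0.256-fold of the control females, while the males overlapped. This gave Cxcl9 genotype differences of -1.97 in females and 0.72 in males, and these differed by 2.69 (95% interval 1.27 to 4.10, unadjusted p = 0.0034, adjusted p = 0.16 from limma). Cxcl10 measured -1.11 and -0.98 in the control females, -1.48 and -1.38 in the control males, -1.97 and -2.17 in the NEKO females, and -1.25 and -0.04 in the NEKO males. The NEKO females were again below all others, and NEKO male 6 was above all others. For Cxcl10 the values were -1.03 in females and 0.79 in males, and these differed by 1.81 (95% interval 0.56 to 3.06, unadjusted p = 0.012, adjusted p = 0.27 from limma). The genes lie near each other on chromosome 5, with 1 gene between them. Their upstream sequences are shown for this pair, with the same motifs in capitals, at chr5:92328030-92328329 (minus strand) for Cxcl9 and chr5:92348840-92349139 (minus strand) for Cxcl10 of GRCm38.p6.
Cxcl9: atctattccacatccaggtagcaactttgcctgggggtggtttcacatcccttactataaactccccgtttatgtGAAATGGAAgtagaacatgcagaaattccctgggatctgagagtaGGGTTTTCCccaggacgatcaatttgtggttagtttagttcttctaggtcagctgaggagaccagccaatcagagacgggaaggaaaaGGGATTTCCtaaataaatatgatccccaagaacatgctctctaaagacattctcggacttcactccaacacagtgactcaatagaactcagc
Cxcl10: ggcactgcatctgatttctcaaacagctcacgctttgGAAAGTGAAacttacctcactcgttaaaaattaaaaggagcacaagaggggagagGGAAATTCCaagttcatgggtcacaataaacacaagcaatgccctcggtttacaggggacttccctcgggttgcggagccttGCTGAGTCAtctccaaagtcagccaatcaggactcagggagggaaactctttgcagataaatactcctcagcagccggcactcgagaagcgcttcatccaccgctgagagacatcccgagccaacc
Cxcl9 held 2 NF-kB cores and 1 interferon-stimulated core, and Cxcl10 held 1 match to each of the 3 motifs. Both thus held an NF-kB core and an interferon-stimulated core within 250 bases upstream.

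Of the 6 receptors tested, 4 were among the 12. Ccr2, the receptor of Ccl2 on inflammatory monocytes, varied little in controls. Ccr2 measured -2.69 and -2.70 in the control females, -2.96 and -2.98 in the control males, -3.12 and -2.80 in the NEKO females, and -2.23 and -1.87 in the NEKO males. The NEKO males were above the other 6 mice. Ccr2 differed between genotypes by -0.27 in females and 0.92 in males, and these differed by 1.19 (95% interval 0.63 to 1.74, unadjusted p = 0.0018, adjusted p = 0.14 from limma). A second Ccr2 probe gave -0.26 in females and -0.50 in males, but was well above background on 2 arrays. Cxcr3, the receptor of Cxcl9 and Cxcl10 on activated T cells, was lowest in NEKO females. Cxcr3 measured -2.83 and -2.24 in the control females, -3.43 and -3.23 in the control males, -3.50 and -3.47 in the NEKO females, and -2.65 and -1.89 in the NEKO males. The control females overlapped the NEKO males. The Cxcr3 differences were -0.95 in females and 1.06 in males, and these differed by 2.01 (95% interval 1.00 to 3.02, unadjusted p = 0.0027, adjusted p = 0.15 from limma).

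Cxcr6, the receptor of Cxcl16 on effector and tissue T cells, followed Cxcr3. Cxcr6 measured -2.99 and -2.13 in the control females, -2.94 and -2.86 in the control males, -3.19 and -3.45 in the NEKO females, and -2.08 and -1.52 in the NEKO males. The NEKO males were the highest and the NEKO females the lowest, and control female 8 stood apart from the other 3 controls. Genotype differences for Cxcr6 were -0.76 in females and 1.10 in males, and these differed by 1.87 (95% interval 0.78 to 2.95, unadjusted p = 0.0054, adjusted p = 0.19 from limma). Cxcr4, the receptor of Cxcl12 on most leukocytes, varied more within groups. Cxcr4 measured -2.57 and -3.81 in the control females, -4.02 and -4.48 in the control males, -3.98 and -3.41 in the NEKO females, and -1.87 and -3.23 in the NEKO males. The males did not overlap between genotypes and the females did. In Cxcr4 the differences were -0.50 in females and 1.70 in males, and these differed by 2.20 (95% interval 0.24 to 4.16, unadjusted p = 0.033, adjusted p = 0.4 from limma). Its second probe, well above background on 5 arrays, gave -0.33 and 0.77. Ccr9, a receptor of gut-homing T cells, differed between genotypes by 0.65 in females and 0.02 in males. The value in females rests on 1 mouse: the NEKO females were at -5.20 and -3.07, the control females at -5.04 and -4.53. Its interaction did not pass the unadjusted threshold.

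**Figure D4:**
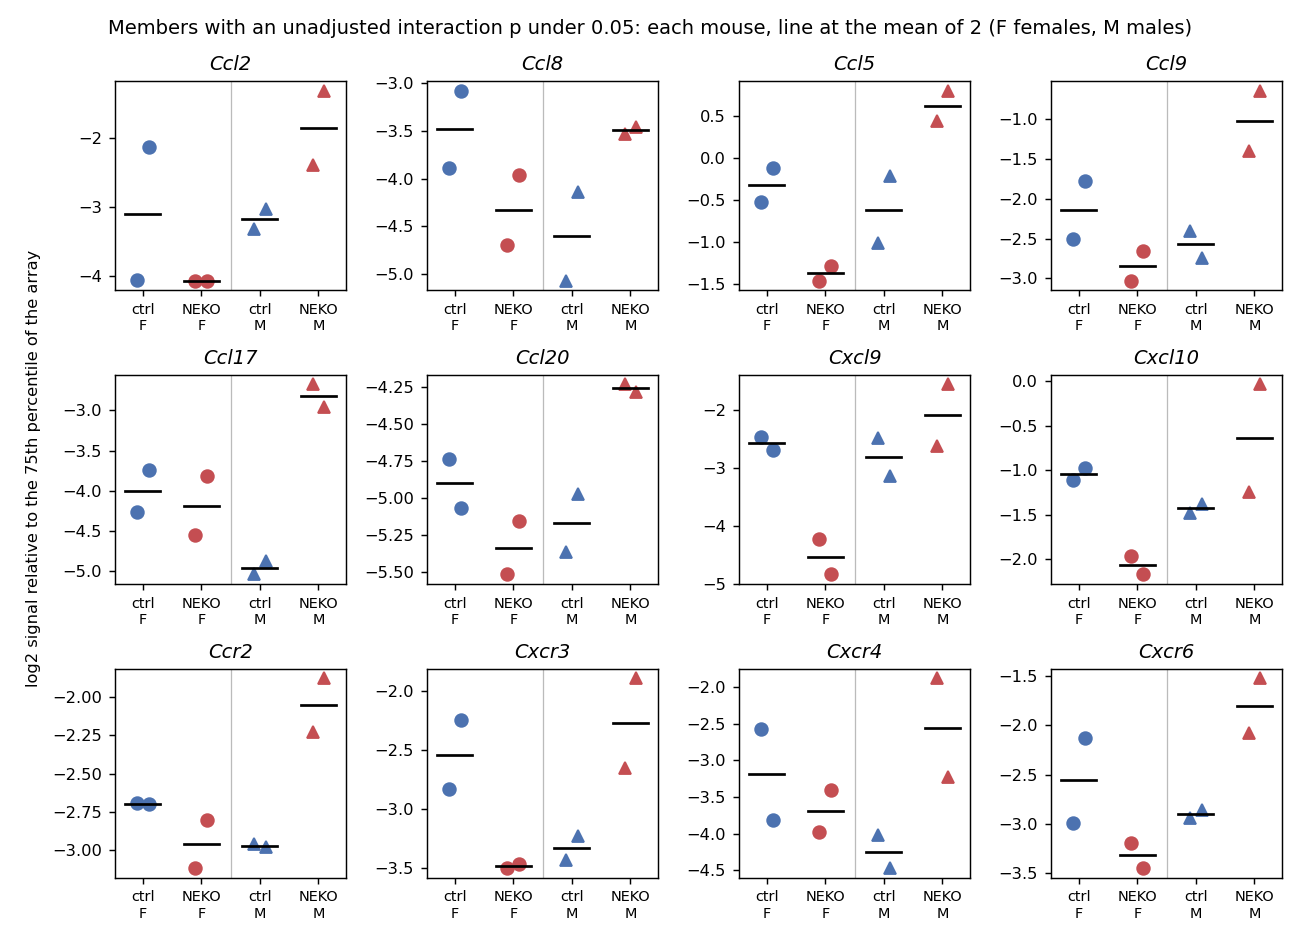
Level of the 12 members with an unadjusted interaction p under 0.05 in each mouse (y axis, log2 signal less the array's 75th percentile, a separate scale in each panel), with females (F) left of the grey line and males (M) right of it and a black line at the mean of 2 mice. In all 12 the NEKO mean is below the control mean in females and above it in males, and the size of the step differs between genes. Ccl20 was well above background only in control females and NEKO males.

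The other ligands with strong probe signals did not pass the unadjusted interaction threshold. Besides Cxcl12, the 4 with the highest mean signal were Cxcl16, Ccl19, Cxcl14 and Ccl25. Cxcl16, a transmembrane chemokine of epithelium and macrophages, was 1.93 ± 0.25 (SD, n = 4) with NEKO and 1.89 ± 0.14 (SD, n = 4) with control genotype. Between genotypes it differed by 0.04 on the log2 scale (standard error 0.14, unadjusted p = 0.79, adjusted p = 0.9 from limma). Cxcl16 measured 1.83 and 1.89 in the control females, 1.76 and 2.08 in the control males, 1.80 and 2.09 in the NEKO females, and 1.65 and 2.17 in the NEKO males. The groups overlapped throughout, and the 95% interval of the difference, -0.30 to 0.38, leaves out changes of 2-fold.

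Ccl19 measured 1.70 and 2.21 in the control females, 1.83 and 2.00 in the control males, 1.76 and 1.08 in the NEKO females, and 2.43 and 2.14 in the NEKO males. NEKO female 3 was the lowest, the females overlapped between genotypes, and both NEKO males were above both control males. Ccl19, a Ccr7 ligand of lymphoid stroma, differed by -0.08 on the log2 scale (standard error 0.25, unadjusted p = 0.75, adjusted p = 0.88 from limma). Its NEKO minus control differences by sex were -0.53 in females and 0.37 in males, and these differed by 0.90 (95% interval -0.05 to 1.85, unadjusted p = 0.059, adjusted p = 0.5 from limma). Cxcl14 measured 1.01 and 2.35 in the control females, 1.48 and 2.04 in the control males, 1.54 and 0.84 in the NEKO females, and 1.75 and 2.04 in the NEKO males. These values spread as widely within the controls as between the genotypes. Cxcl14, an epithelial chemokine, differed by -0.18 on the log2 scale (standard error 0.34, unadjusted p = 0.62, adjusted p = 0.8 from limma). Ccl25 measured 0.70 and 0.81 in the control females, 1.20 and 1.06 in the control males, 0.85 and 0.81 in the NEKO females, and 0.78 and 0.91 in the NEKO males. The NEKO values sat within the range of the controls. Ccl25, the ligand of Ccr9, differed by -0.11 on the log2 scale (standard error 0.10, unadjusted p = 0.32, adjusted p = 0.59 from limma). In the same group, Ccl21a (-0.24), Ccl27a (-0.09) and Ccl28 (-0.46), ligands of lymphoid tissue and epithelium, did not pass the unadjusted threshold. Ccl21a has near-identical copies in the mouse genome that its probe may not tell apart.

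The 22 members that were not tested were detected in few mice or in none. Not well above background on any array with the brightest probe were Ccl1, Ccl3, Ccl7, Cxcl2, Cxcl3, Cxcl5, Cxcl15, Cxcl17, Ccr1, Ccr1l1, Ccr3, Ccr4, Ccr8, Ccr10, Cxcr1 and Cxcr2, although a dimmer probe of Ccr3 and of Cxcr2 passed on 1 array each. The B cell attractant Cxcl13 was detected in 1 control kidney, and its receptor Cxcr5 and the ligand Ccl22 in 1 NEKO kidney each. Ccr6 and Ccr7 were each detected in 1 control and 2 NEKO kidneys, the 2 being the males, and Ccl24 in 1 of each group.

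Many members are neighbours in the genome. On chromosome 11, Ccl2, Ccl7, Ccl11, Ccl12, Ccl8 and Ccl1 follow each other with at most 1 gene between, and further along lie Ccl5, Ccl9, Ccl6, Ccl3 and Ccl4 with at most 2. All 4 tested genes of the former run were lower in NEKO females and higher in NEKO males. In the latter run Ccl5, Ccl9 and Ccl6 had these signs and Ccl4 was lower in both sexes. On chromosome 9, Ccr9 and Cxcr6 have 1 gene between them. Ccr9 had mean differences above 0 in both sexes, that in females resting on 1 NEKO mouse. The genes were ordered by their starts in the RefSeq table.

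Other parts of the chemokine system were described with gene lists. Of 13 chemokines and receptors outside the symbol rule, 10 were tested and 0 passed the adjusted threshold in limma. At an unadjusted p under 0.05, 4 were higher in NEKO kidneys (against 7.37% of all features) and 1 was lower (against 10.6%). The higher ones were the fractalkine gene Cx3cl1 (0.64, adjusted p = 0.20 from limma), the platelet chemokine genes Pf4 (0.75, adjusted p = 0.27) and Ppbp (2.05, adjusted p = 0.11), and the scavenging receptor Ackr2 (1.56, adjusted p = 0.17). The lower one was the atypical receptor Ccrl2 (-0.34, adjusted p = 0.28). Ppbp was well above background in 2 of 4 controls and 3 of 4 NEKO mice. Of the 10 genes, 3 passed an unadjusted interaction p under 0.05, all larger in males (against 6.87% of all features) and none after adjustment. These were Cx3cl1 (0.19 in females, 1.09 in males), Pf4 (0.11 and 1.39) and Ackr2 (0.48 and 2.65). Cx3cr1, the receptor of Cx3cl1, differed by 0.32, and Ackr3, the second receptor of Cxcl12, by 0.22. The median over the 10 was 0.10 in females and 0.47 in males.

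Genes that relay chemokine signals into movement were read as a further list. Of 20 such genes 16 were tested, with 0 past an unadjusted p under 0.05 between genotypes in either direction. For the interaction, 8 of the 16 passed an unadjusted p under 0.05 and 0 an adjusted one in limma. All 8 were larger in males, as were 6.87% of all features at this threshold: Rac2, Coro1a, Was, Dock2, Itgb2, Pik3r5, Rgs10 and Gnai2. Arrb1, Grk6 and Rgs2 had effects lower in males than in females, without passing it. Rac2, a small GTPase of leukocytes, had differences of -0.50 in females and 0.92 in males. Among 14 tested genes of NF-kB and inducing cytokines, Ikbkb (0.21) passed the unadjusted threshold as higher, against 7.37% of all features. Il1b (-0.75) passed it as lower, against 10.6%. Il6, Tnf and Il1a were not tested. Feedback targets of NF-kB such as Nfkbia (-0.29 in females, 0.76 in males) and Tnfaip3 (-0.28 and 0.62) were among 6 with an unadjusted interaction p under 0.05. All 6 were larger in males, against 6.87% of all features. In the interferon-gamma list, 9 of 10 genes were tested and Ifng was not. None of the genes of these 3 lists passed an adjusted p under 0.05 in limma, for the genotype or for the interaction.

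Some markers of leukocytes and stroma varied alongside the members. Of 10 T and NK cell markers 6 were tested (Cd4, Cd8b1, Cd2 and Ncr1 were not), and their summed level was -1.53 to -1.35 in NEKO females, -0.58 to -0.28 in control females, -1.01 to -0.67 in control males and -0.25 to 0.21 in NEKO males. Of the 6, Cd3d, Cd3g, Lck and Nkg7 passed an unadjusted interaction p under 0.05 as larger in males, against 6.87% of all features. None passed after adjustment in limma. The T cell receptor subunit Cd3d had differences of -1.52 in females and 1.20 in males, and the cytotoxic granule gene Nkg7 of -0.79 and 1.04. The co-receptor gene Cd8a was different, at -1.98 in females and -0.58 in males. Every NEKO value of Cd8a lay below every control value (-1.28, unadjusted p = 0.016, adjusted p = 0.19 from limma). The part of these cells in the chemokine values was not tested.

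The other marker lists varied less evenly. Of 13 macrophage and monocyte markers 12 were tested, and their summed level was 6.09 to 6.14 in NEKO females, 6.08 to 6.43 in NEKO males and 5.85 to 6.07 in controls. That sum is carried by Ly6c2, and the median difference over the 12 was -0.15 in females and 0.36 in males. Of the 12, 4 passed the unadjusted interaction threshold in limma, and 3 of these were larger in males (against 6.87% of all features). The remaining one, the macrophage receptor gene Csf1r, went the opposite way (against 3.65%), with differences of 0.29 in females and -0.67 in males. Of 6 dendritic cell markers 4 were tested (Clec9a and Cd209a were not), with sums of -0.48 to -0.15 in NEKO females, -0.20 to 0.42 in NEKO males and -0.42 to 0.41 in controls. Of 8 neutrophil markers only S100a8, S100a9 and Mpo were tested, and the defining Ly6g, Csf3r, Elane, Camp and Ngp were not. The neutrophil sum was -1.50 to -0.87 in NEKO females, 0.68 to 2.74 in NEKO males and -2.16 to -0.92 in controls. That sum is carried by S100a9, at 2.59 and 0.48 in the NEKO males. S100a8 was well above background in 1 of 4 controls and 3 of 4 NEKO mice, so it met the filter through the NEKO kidneys. Mpo differed by 0.05 between genotypes. Of 7 B and plasma cell markers 4 were tested (Cd79a, Pax5 and Ighm were not), and NEKO males at 0.10 to 0.42 were above NEKO females at -1.43 to -1.21 and controls at -1.51 to -0.40.

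Stromal and endothelial markers were all tested. The 6 fibroblast and perivascular genes summed to 5.15 to 5.36 in NEKO females, 5.55 to 5.59 in control females, 4.73 to 5.06 in control males and 5.99 to 6.54 in NEKO males. Of these 6, 5 passed an unadjusted interaction p under 0.05 as larger in males, against 6.87% of all features. The sum of the 6 endothelial genes lay between 4.41 and 4.65 in all mice, and it is carried by Emcn. The median difference over the 6 was 0.00 in females and 0.23 in males. Tubule markers were lowest in the NEKO males, at 9.03 in both, against 9.07 to 9.29 in controls. Nqo1 itself was 1.69 higher in NEKO females and 3.55 higher in NEKO males (adjusted p = 0.26 for the interaction in limma). The part of each of these in the chemokine values was not tested.

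**Figure D5:**
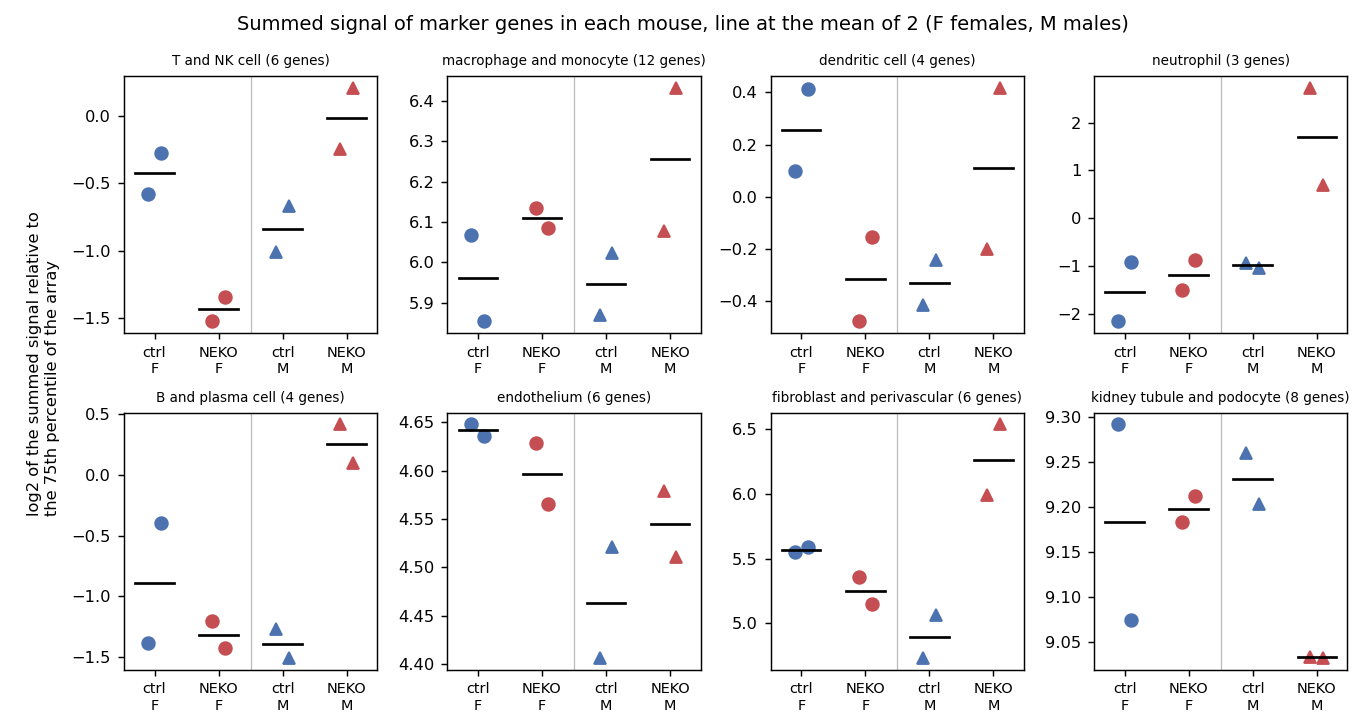
Summed signal of the tested marker genes of 8 cell types in each mouse (y axis, log2 of the sum less the array's 75th percentile, a separate scale in each panel), females (F) left and males (M) right, with a line at the mean of 2 mice. The T and NK cell sum is lowest in the NEKO females. Those of B and plasma cell, neutrophil and fibroblast markers are highest in the NEKO males, while the endothelial sum stays between 4.41 and 4.65. S100a9 carries the neutrophil sum and Emcn the endothelial sum.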

How the data were processed

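Kidney RNA of 4 NEKO and 4 control mice was measured on 8 Agilent arrays. The authors deposited scanner output (Feature Extraction 10.7.3.1, per the file headers) with intensity values per spot, where the processed signal is background-subtracted, and a matrix of log2 values. The matrix was checked to be the log2 processed signal less the 75th percentile of the array, centred on each probe's median (its column medians run from -0.04 to 0.08). The array normalization and test are not given in the sources used here.

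Outlier and control spots were left out and spots of a probe averaged. A gene was read from its brightest probe among those well above background on at least 4 of 8 arrays, with values on at least 6. RefSeq (GRCm38.p6) named 26690 of 41174 probes. Of the members, 10 in RefSeq had no named probe and were not analysed here. Genotype was tested in limma 3.58.1 (R 4.3.3) with sex as a term and Benjamini-Hochberg adjustment over 19593 features, and sex by genotype in a second model over all mice. For single members, an exact two-sided permutation test over all mice, without regard to sex or slide, was added. The procedure was tested on simulated data. A bound within a sex was set against the lowest signal well above background on each dim array.

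Genes described in full are those called, not overlapping, past an unadjusted p of 0.05 (for the interaction, with a difference of at least 1), or among the 5 brightest. The members, lists and tests were chosen with earlier results of these data known. Summed levels add linear signals of a list's tested genes. Replicate numbers run over both groups, so none is shared. Counts cover all tested members, but the values of 1 member and 1 pathway gene are not reported here. Alternatives were normexp (offset 50), quantile normalization, other scaling, filters, probe averaging, the deposited log2 matrix, no sex term, averaging over the sexes, other variance models, the methods' test, an adjusted p under 0.01 and leaving out each mouse.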

Additional observations from a re-analysis of the deposited data

Results flagged for a closer look

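In 1 of 38 groups of 4 mice looked at (the members described in full, in each genotype), 1 mouse stood apart: Cxcr6 in control mice, where control female 8 at -2.13 was above the others at -2.99 to -2.86, a gap of 0.853 of the range. Chance sets a mouse apart in about 1 in 20 such groups.

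In 9 members both NEKO females lay below both control females and both NEKO males above both control males (33.3%, against 3.56% of all features). In 1 more, Ccl25, the arrangement was the opposite (3.7%, against 2.4%). The Ccl25 females were narrowly apart, with NEKO female 3 at 0.814 and control female 8 at 0.806. So were the Ccl2 females, with NEKO female 2 at -4.061 and control female 1 at -4.056. None of these 10 contrasts passed the adjusted interaction test in limma. The Ccl20 value rests on levels not well above background in 1 genotype of each sex. The effect in males minus that in females was 2.29 for Ccl2, 2.28 for Ccl5, 1.96 for Ccl8, 2.25 for Ccl9, 1.35 for Ccl20, 1.81 for Cxcl10, 1.19 for Ccr2, 2.01 for Cxcr3 and 1.87 for Cxcr6. For Ccl25 it was -0.37, the reverse direction.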

How the results depend on the processing

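The count of 0 members called in each direction by limma held under all but 2 settings. When the effect was averaged over the sexes with an interaction, 1 was called higher (Cxcl12). That setting called 245 higher and 268 lower of all 19593 features. The methods' test without adjustment called 2 higher and 1 lower, where it called 943 and 1269 of all 19593 features. The methods' test with adjustment called 0. Members whose groups did not overlap numbered 1 higher with probes detected on all 8 arrays, 2 to 3 higher with each mouse left out, and 0 to 2 lower, the lower ones being Ccl4 and Ccl28 without control 1, Ccl21a without control 4 and Ccl4 without NEKO 5. Without control 8, Ccl6 was added to the higher ones. The share of all features that separated was counted in the main setting only (3.88% higher, 5.33% lower). With 1 mouse fewer, any feature separates at least as easily. No member passed the adjusted interaction test under any setting run. The lowest adjusted p was 0.069, for Cxcl10 without NEKO 5.

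Small differences turned sign. Ccl19 was 0.064 with the mean of the kept probes and -0.23 to 0.14 with each mouse left out, Cxcl16 was -0.024 with array weights and -0.056 to 0.15 with each mouse left out, and Cxcl14 was -0.38 to 0.15 with each mouse left out. The cause was not tested. No scaling moved the median of all features by over 0.1. Normexp background correction gave smaller interaction differences, among them 0.43 for Ccl20, 0.84 for Ccl8, 1.13 for Ccl17 and 1.30 for Cxcr4. The Ccl2 interaction was 1.33 without control 8, that of Cxcl10 1.21 without NEKO 6.

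No paired analysis was possible because the groups share no replicate number. The number of arrays, with 2 mice per sex and genotype, limits the interaction, and probes near background limit Cxcl1, Ccl12 and Ccl20. In the interaction, sex cannot be told apart from slide, and the part of the 1 control female without Cre was not tested. Ccl8, Ccl11 and Ccl17 were well above background in 1 of 2 control males, which limits their differences in males.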

Other observations

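Genes of tubular injury were also read, since injured tubules can secrete chemokines. All 6 were tested and 0 passed the adjusted threshold in limma. Clu, a secreted chaperone of stressed tubules, lay below every control mouse in every NEKO mouse, at 3.03 to 3.97 against 4.08 to 4.75 (-0.85, adjusted p = 0.13 from limma). Lcn2, which binds bacterial siderophores, differed by 0.73 and the keratin Krt20 by 1.37. Both passed an unadjusted p of 0.05 as higher, against 7.37% of all features. Havcr1, the kidney injury molecule gene, differed by -0.42 (adjusted p = 0.56 from limma). No common direction was found in the list.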
